A study of Mus musculus with 8 samples.

Results

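The imprinted growth genes are a group of 9 mouse genes that are expressed mainly from 1 parental allele and that act on the growth of the embryo: Dlk1, Meg3, Igf2, H19, Cdkn1c, Peg3, Mest, Grb10 and Plagl1. Members were taken by name, and a gene's values came from the array probe sets annotated to that gene alone. By this rule 8 of the 9 genes were measured, through 28 of the 45101 probe sets, and all 8 passed the filter on low values, as did 13545 of the 18193 genes with a probe set of their own. The only probe set that carries the name H19 is also annotated to the microRNA gene Mir675, so H19 has no value among the results. Each gene is described by its brightest probe set, chosen by the mean intensity over the 8 arrays, and the dimmer ones are given beside it. Probe sets differ in how strongly they bind their target, so levels are compared between arrays and not between genes.

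The data were 8 arrays of E11.5 (embryonic day) mouse tissue, with 1 control and 1 FAK mutant array in each of 4 origins (the stage of LM, OFT and UM is that of the series title). FAK, focal adhesion kinase, is the integrin signalling kinase encoded by Ptk2. The p75 origin was cranial neural crest cells sorted for p75, the nerve growth factor receptor encoded by Ngfr, from the head and thorax of 3 pooled control or 3 pooled mutant embryos. The other origins carry the names LM, OFT and UM, which the labels do not spell out and which are kept as they stand. The mutant allele, any Cre driver and the number of embryos behind the LM, OFT and UM arrays are not given in the sources used here, and Ptk2 itself was not analysed here. With 1 array per origin and genotype, both arrays of an origin stood in as its replicates, and p-values measure the spread between these arrays only. The p75 label matched its marker: Ngfr read 1043 on the control and 1422 on the mutant p75 array, against 47.1 to 149 on the other 6 arrays. Cardiac muscle markers summed to 16099 and 18089 on the OFT arrays, against 46 to 964 on the LM and UM arrays. The LM control array stood apart in the spike-in controls, whose geometric mean was 2936 there and 639 to 1444 on the other 7 arrays. Calls that change when that array is left out are named beside the results.

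Imprinted genes are marked by DNA methylation in the egg or the sperm, and the mark decides which parental copy is used. Many lie in clusters in which a growth-promoting gene used from the father's copy neighbours a non-coding RNA or growth inhibitor used from the mother's copy. Dlk1, Igf2, Peg3, Mest and Plagl1 are expressed from the paternal allele, while Meg3, H19 and Cdkn1c are expressed from the maternal allele, as is Grb10 in most tissues. Dlk1 and Meg3 are neighbours on mouse chromosome 12, with 2 annotated genes between them, and Igf2 and H19 are neighbours on chromosome 7. The arrays do not tell the 2 parental copies apart, so every value is the sum of both. In a bulk sample, fewer cells of a type and less RNA per cell cannot be told apart.

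The promoter windows of 5 genes are printed because these genes were higher in LM than in UM and have a window in the table used. Each window runs from 250 bases before to 50 bases after a gene start of RefSeq on GRCm38.p6 and is written 5′ to 3′ on the gene's strand. The windows are Dlk1 at chr12:109452573-109452872 (plus strand), Meg3 at chr12:109540746-109541045 (plus), Igf2 at chr7:142661222-142661521 (minus), Peg3 at chr7:6730370-6730669 (minus) and Plagl1 at chr10:13090582-13090881 (plus). Capitals mark matches to GGGGCCCC, the core bound by PLAGL1, and to TGCCGC on either strand, the core bound by ZFP57, a zinc finger protein that keeps methylation at imprinted loci.
Dlk1: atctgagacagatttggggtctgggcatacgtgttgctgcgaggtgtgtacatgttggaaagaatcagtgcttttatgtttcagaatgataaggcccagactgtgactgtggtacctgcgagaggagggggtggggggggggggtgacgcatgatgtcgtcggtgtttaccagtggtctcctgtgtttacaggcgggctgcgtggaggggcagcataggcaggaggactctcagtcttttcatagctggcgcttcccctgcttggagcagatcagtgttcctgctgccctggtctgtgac
Meg3: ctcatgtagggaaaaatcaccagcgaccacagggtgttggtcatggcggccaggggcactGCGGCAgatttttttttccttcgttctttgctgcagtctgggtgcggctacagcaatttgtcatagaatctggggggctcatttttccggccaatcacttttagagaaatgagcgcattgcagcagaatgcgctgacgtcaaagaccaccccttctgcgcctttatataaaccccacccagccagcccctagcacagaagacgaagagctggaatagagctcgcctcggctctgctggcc
Igf2: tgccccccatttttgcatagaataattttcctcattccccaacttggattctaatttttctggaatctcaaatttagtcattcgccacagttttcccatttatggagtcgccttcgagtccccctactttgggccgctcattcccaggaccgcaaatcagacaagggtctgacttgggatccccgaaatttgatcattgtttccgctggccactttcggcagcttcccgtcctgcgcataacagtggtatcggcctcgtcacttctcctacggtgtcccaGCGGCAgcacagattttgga
Peg3: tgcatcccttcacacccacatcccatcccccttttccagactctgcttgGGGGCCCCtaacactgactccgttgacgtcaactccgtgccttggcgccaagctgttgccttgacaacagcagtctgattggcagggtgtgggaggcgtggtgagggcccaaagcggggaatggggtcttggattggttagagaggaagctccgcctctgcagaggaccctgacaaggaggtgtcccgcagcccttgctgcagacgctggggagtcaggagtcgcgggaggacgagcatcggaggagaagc
Plagl1: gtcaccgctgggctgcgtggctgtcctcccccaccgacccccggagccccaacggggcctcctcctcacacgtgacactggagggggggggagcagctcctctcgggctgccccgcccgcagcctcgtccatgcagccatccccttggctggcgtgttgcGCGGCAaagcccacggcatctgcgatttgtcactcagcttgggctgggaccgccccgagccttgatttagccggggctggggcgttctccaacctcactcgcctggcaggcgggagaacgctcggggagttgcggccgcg
The Peg3 window holds 1 match to the PLAGL1 core, and the Meg3, Igf2 and Plagl1 windows hold 1 match each to the ZFP57 core. Of all 32851 windows in the table, 1.08% hold the PLAGL1 core and 11.6% the ZFP57 core (1.25% and 13.1% of genes have such a window), and in these windows the matches of the motifs do not overlap. A match describes letters in a window and not a bound site. Igf2 has 4 windows and Meg3 has 2, of which the one with a match is shown, so the printed windows were picked for their matches. Over all 9 windows of these 5 genes, 3 hold the ZFP57 core and 1 the PLAGL1 core, and the number of CpG dinucleotides runs from 1 to 26, against a median of 7 over all windows.

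On the deposited scale UM was the origin with the lowest mean level for all 8 measured genes of the group, and after quantile normalization between arrays for 7 of them, LM being lowest for Grb10. For 7 of the 8 genes, all but Grb10, both UM arrays lay below all 6 other arrays. The same was true of 6.37% of all tested genes and of 5.21% of the 1285 genes with a mean intensity of at least 1000. After quantile normalization both UM arrays were again the lowest for the same 7 genes, against 7.34% of tested genes. The order of the upper origins changed with that scaling. Both LM arrays were the highest for Dlk1 and Mest on the deposited scale, but for Dlk1 alone after quantile normalization. Both p75 arrays then became the highest for Meg3, Cdkn1c and Grb10, and both OFT arrays for Igf2, Peg3 and Plagl1. Both LM arrays became the lowest for Grb10. Of all tested genes after that scaling, both p75 arrays were the highest for 29.9% and both OFT arrays for 9.83%. Both LM arrays were then the highest for 3.99% and the lowest for 5.77%. On the deposited scale both LM arrays were the highest for 4.06%. For p75, 3 of 8 genes is near the background. The origins' mean levels, on the scale of log2(intensity + 32) used for all differences here, spanned 2.55 for Dlk1, 1.76 for Cdkn1c, 1.74 for Peg3, 1.61 for Igf2 and 1.09 for Meg3. The spans of Plagl1, Mest and Grb10 were 0.96, 0.66 and 0.37. The median span over all tested genes was 0.62, and 23.7% of them spanned at least 1.

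**Figure D1:**
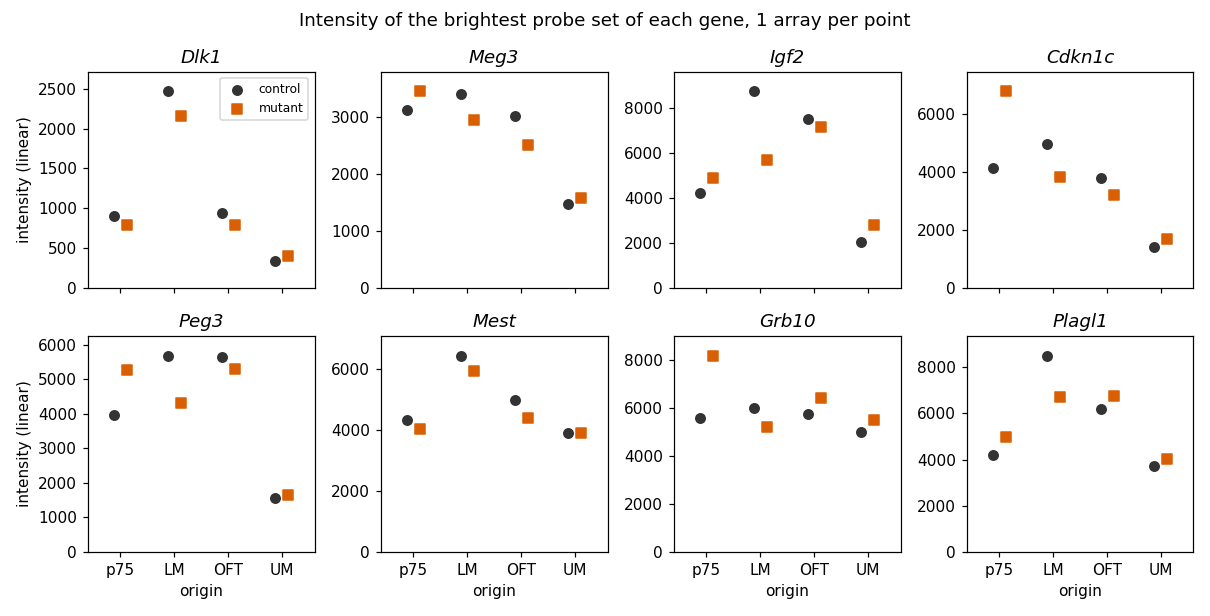
Linear intensity of the brightest probe set of each gene (y axis, from 0) in the 4 origins (x axis), with 1 array per point, circles for control and squares for mutant. Both UM arrays are the lowest for every gene except Grb10, and both LM arrays are the highest for Dlk1 and Mest (for Dlk1 alone after quantile normalization).

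Dlk1, a membrane protein with EGF-like repeats that is related to Notch ligands, had the widest range of the group. Its intensity was 2467 on the LM control and 2159 on the LM mutant array, and 338 and 398 on the UM arrays. The OFT arrays read 941 (control) and 790 (mutant), and the p75 arrays 901 and 790. LM therefore stood above all other arrays and UM below them, while OFT and p75 overlapped each other in between.

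Igf2, the fetal growth factor that acts through the IGF1 receptor, read 8736 and 5706 in LM, 7516 and 7142 in OFT, 4208 and 4873 in p75 and 2021 and 2786 in UM, control first. OFT and LM overlapped at the top, and p75 and UM followed without overlap. Grb10, an adaptor that dampens insulin and IGF1 receptor signalling, had the flattest profile of the group. It read 5578 and 8191 in p75, 5740 and 6441 in OFT, 6004 and 5232 in LM and 4988 and 5495 in UM. All neighbouring origins overlapped for Grb10.

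Cdkn1c encodes p57, an inhibitor of cyclin-dependent kinases that holds cells out of the cycle. Its intensity was 4145 and 6796 in p75, 4978 and 3836 in LM, 3799 and 3216 in OFT and 1401 and 1702 in UM. On the deposited scale the p75 arrays overlapped LM, LM lay narrowly above OFT (3836 against 3799 at the nearest), and OFT lay above UM.

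The zinc finger transcription factors Peg3 and Plagl1 were both lowest in UM, and for both the LM and OFT arrays overlapped. Peg3 read 5664 and 5303 in OFT, 5691 and 4326 in LM, 3967 and 5277 in p75 and 1573 and 1658 in UM. Its OFT, LM and p75 values overlapped in sequence, and UM was separate. Plagl1, which induces other imprinted genes, read 8506 and 6694 in LM, 6173 and 6735 in OFT, 4180 and 4974 in p75 and 3734 and 4009 in UM. LM overlapped OFT, and p75 and UM followed without overlap.

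Mest, a protein of the alpha/beta hydrolase fold family, read 6450 and 5937 in LM, 4991 and 4402 in OFT, 4319 and 4036 in p75 and 3899 and 3909 in UM. On the deposited scale its 4 origins did not overlap, though the p75 and UM means were close, at 12.04 and 11.94 in log2. After quantile normalization the LM arrays of Mest were no longer both above all others. The long non-coding RNA Meg3 read 3124 and 3448 in p75, 3401 and 2940 in LM, 3015 and 2502 in OFT and 1467 and 1581 in UM. The 3 upper origins overlapped in sequence for Meg3, and UM lay apart.

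Between LM and UM, of the 8 genes, 6 were higher in LM at an adjusted p below 0.05 and none was lower. Over all tested genes, 0.738% were called higher in LM and 0.819% lower, and the median difference was -0.01 against 1.26 for the 8 genes. Among the 1285 bright genes, 17 were called higher, or 1.32%. Differences and their standard errors come from limma, fitted on all genes in 1 model of origin and genotype, and the Benjamini-Hochberg adjustment ran over all 13545 genes.

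Dlk1 was 5.86-fold higher in LM, a log2 difference of 2.55 ± 0.18 (SE, 2 arrays per origin) with an adjusted p of 1.05e-05 in limma. Peg3 was 3.03-fold higher (1.60 ± 0.21, adjusted p = 0.00122) and Igf2 2.95-fold higher (1.56 ± 0.23, adjusted p = 0.00368). Cdkn1c was 2.79-fold higher (1.48 ± 0.24, adjusted p = 0.00682). Meg3 was 2.05-fold higher (1.04 ± 0.18, adjusted p = 0.0119), and Plagl1 was 1.94-fold higher (0.96 ± 0.19, adjusted p = 0.0265). Thus both the growth factor Igf2 and the cell cycle inhibitor Cdkn1c, and both Dlk1 and its maternally expressed neighbour Meg3, were higher in the same origin. Mest had a difference of 0.66 ± 0.17 with an adjusted p of 0.102, although its LM and UM arrays did not overlap. Grb10 differed by 0.10 ± 0.20, and its LM and UM arrays overlapped.

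The count of 6 rested partly on single arrays. Without the LM control array 3 genes were called (Dlk1, Igf2 and Peg3), and without the UM control array 2 were called (Dlk1 and Peg3). Without the LM control array the differences were 2.49 for Dlk1 (adjusted p = 1.44e-05), 1.34 for Peg3 (0.00965), 1.16 for Igf2 (0.0325), 1.17 for Cdkn1c (0.0592), 0.94 for Meg3 (0.116), 0.71 for Plagl1 (0.347), 0.65 for Mest (0.465) and -0.14 for Grb10, with the sign of Grb10 turned. The remaining array of the origin was then assumed to vary as the other origins do. With a pseudocount of 1 in place of 32 only Dlk1 was called, among 64 genes over the whole table. Plagl1 was the least stable of the 6 and was called in 5 of 17 alternative settings, Dlk1 in 17 of 17.

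**Figure D2:**
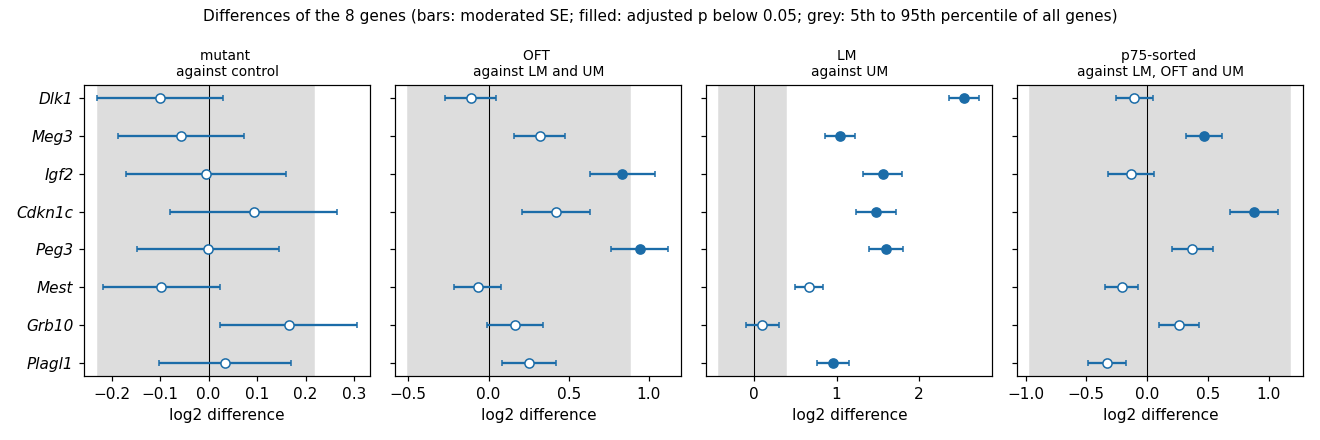
Log2 differences of the 8 genes (x axis) in 4 comparisons, 1 panel each with its own axis, with bars for the moderated SE, filled points for an adjusted p below 0.05 and a grey band from the 5th to the 95th percentile of all tested genes. In the LM against UM panel 6 genes are filled and 7 lie to the right of the grey band, and no point is filled in the mutant against control panel.

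Dimmer probe sets mostly showed the same direction between LM and UM. Meg3 has 11 probe sets, of which 10 were above 0 (the range was -0.15 to 1.56). Both probe sets of Dlk1 (0.94 and 2.55) and of Igf2 (1.45 and 1.56) and all 3 of Plagl1 (0.28 to 1.08) were above 0. Of the 5 probe sets of Peg3, 3 lay between 1.60 and 1.71, and the other two were below an intensity of 19.4, the threshold of the filter, on every array. The 3 probe sets of Grb10 lay between -0.16 and 0.10. The brightest probe sets of Meg3 and Plagl1 are of the x type and that of Dlk1 is of the s type, designs in which probes may also match other transcripts.

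**Figure D3:**
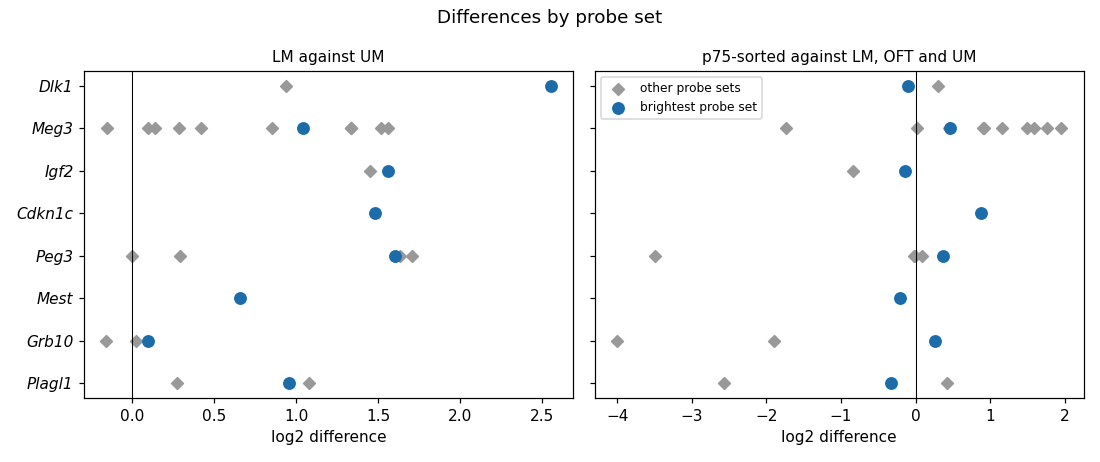
Log2 differences (x axis) of all 28 probe sets by gene (y axis), LM against UM on the left and p75-sorted cells against the other 3 origins on the right, with circles for the brightest probe set and diamonds for the others. On the left nearly all lie at or above 0. On the right 1 probe set of Peg3 (-3.50), 2 of Grb10 (-4.00 and -1.90) and 1 of Meg3 (-1.73) lie far below the brightest one of the gene. So does 1 of Plagl1, which is below the filter threshold on both p75 arrays, so that its position depends on the pseudocount.

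Markers of other cell types also differed between LM and UM. Of 6 skeletal muscle markers, Myog (2.61 ± 0.26), Myf5 (1.93 ± 0.18) and Myod1 (0.995 ± 0.175) were higher in LM and Pax7 (-2.14 ± 0.20) was lower, and their summed intensity was 445 and 587 in LM against 261 and 333 in UM. Of 6 epithelial markers 3 were lower in LM, and they summed to 1075 and 1155 against 1942 and 2344. Of 7 neuronal markers 3 were lower in LM, with sums of 601 and 1112 against 1851 and 1043, which overlapped. Among the other marker lists, Tfap2a of the neural crest list was lower, and Actc1 and Tnnt2 (cardiac), Acta2 (smooth muscle) and Col9a1 (cartilage) were higher in LM. The summed neural crest markers were 461 and 527 in LM against 773 and 745 in UM, and the cartilage 2726 and 2389 against 1618 and 1683. The cardiac sums were 619 and 964 in LM against 46 and 129 in UM, and the smooth muscle 814 and 989 against 146 and 200. In LM these sums rested mainly on Actc1 (552 and 875) and Acta2 (742 and 901). Apart from Tnnt2, no other cardiac or smooth muscle marker was called between LM and UM. Myl7, Myh6 and Cnn1 were below the filter threshold on all LM and UM arrays. Myog, Myf5 and Tnnt2 were below the filter threshold on both UM arrays, so the sizes of their differences depend on the pseudocount. When the LM control array was left out, Myod1, Tfap2a, Krt8, Cldn6, Tubb3 and Elavl4 were not called and Nefl was. None of the endothelial, erythroid, macrophage or liver and yolk sac markers was called between LM and UM. Of all marker genes, Matn1 (cartilage), Aif1 (macrophage), Apob and Fgb (liver) were below the filter threshold on every array. The part of these cell types in the levels of the imprinted genes was not tested.

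Other imprinted genes were read against the same comparison. They are called paternally or maternally expressed by their list only, and which allele was used in these samples was not measured. Of 18 tested paternally expressed genes outside the group, 1 was called higher in LM than UM and none lower. This was Magel2 (1.37 ± 0.17, adjusted p = 0.00114), a neighbour of Necdin, and the median of the list was 0.36 with 15 above 0. Of 16 tested maternally expressed genes, 4 were called higher and none lower, with a median of 0.39 and 15 above 0. They were Rian (1.26 ± 0.19, adjusted p = 0.0042) and Mirg (0.79 ± 0.17, adjusted p = 0.0429), the non-coding RNAs that follow Meg3 on chromosome 12, Asb4 (0.87 ± 0.18, adjusted p = 0.0265) and Zim1 (0.88 ± 0.18, adjusted p = 0.0304). Zim1 lies next to Peg3 with no annotated gene between them. Rian read 485 and 380 in LM and 177 and 146 in UM, and Zim1 read 46.1 and 50.9 against 11.2 and 12.2, below the filter threshold on both UM arrays. With the LM control array left out, Magel2 (1.29, adjusted p = 0.00943) and Rian (1.11, adjusted p = 0.0432) were called, and Mirg (0.253), Asb4 (0.147) and Zim1 (0.184) had larger adjusted p.

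Genes that act with the group showed no calls between LM and UM. None of 13 tested genes of the IGF axis passed the limma test, and those with the smallest p were Igf1 (-0.77 ± 0.19, adjusted p = 0.0789) and the binding protein gene Igfbp3 (0.82 ± 0.24, adjusted p = 0.189). None of 15 CDK inhibitors, cyclins and their partners passed, with Ccnd1 (0.70 ± 0.22, adjusted p = 0.223) and Cdk6 (0.56 ± 0.22, adjusted p = 0.422) at the smallest p. None of 9 genes that maintain imprints passed, with the DNA methyltransferase genes Dnmt3a (0.37 ± 0.22) and Dnmt3b (-0.25 ± 0.21) at the smallest p. A missed threshold with 2 arrays per origin does not show that levels were equal.

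In OFT, set against the average of LM and UM, 2 of the 8 genes were higher and none was lower. Over all genes 11.3% were called higher and 3.88% lower, and the median was 0.01 against 0.29 for the 8 genes. Peg3 was 1.92-fold higher (0.94 ± 0.18, adjusted p = 0.00339) and Igf2 was 1.78-fold higher (0.83 ± 0.20, adjusted p = 0.0155) in limma. For both genes the OFT arrays overlapped those of LM and lay above those of UM. The other differences by the brightest probe set ran from 0.42 for Cdkn1c to -0.11 for Dlk1, with adjusted p of 0.214 or more. Without the OFT control array neither gene was called, and without the OFT mutant array Peg3 alone was. Both were called when the LM control array was left out.

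Other imprinted genes had larger differences in OFT than the group did. Igf2r, the maternally expressed receptor that takes up and removes IGF2, was higher by 2.26 ± 0.16 (adjusted p = 1.08e-06), with 2351 and 2534 in OFT, 647 and 575 in LM and 357 and 418 in UM. It was 1 of 6 called higher of the 16 genes listed as maternally expressed, beside Dcn (1.64), Rian (1.51) and Osbpl5 (0.75), and none was lower. Osbpl5 was not called when the LM control array was left out, nor were the markers Cdh5 and Krt8, while Myog was. Of 18 paternally expressed genes 3 were higher and 2 lower, led by Slc38a4 (1.38), Airn (0.99), Nnat (-0.82) and Peg10 (-0.80). In the IGF axis the adaptor gene Irs4 (2.69), Igfbp5 (1.47) and Igfbp7 (1.31) were higher and Igfbp2 (-0.79) was lower, of 13 tested. Cdkn2b (1.23) was the 1 gene called of the 15 of the CDK list, and Dnmt3a (0.76) the 1 called of 9 genes of imprint maintenance. All 6 cardiac and all 5 smooth muscle markers were also called higher in OFT, with smooth muscle sums of 6127 and 6478 against 146 to 989 in LM and UM. Of 6 endothelial markers 5 were higher (sums of 1550 and 1322 against 732 to 842), of 7 neuronal markers 4 were higher (4960 and 3290 against 601 to 1851), of 5 cartilage markers 3 were higher (5100 and 4665 against 1618 to 2726) and of 5 macrophage markers 2 were higher (823 and 562 against 333 to 404). Of 4 erythroid markers 2 were lower, with sums of 11532 and 13692 against 17077 to 28820. Of 5 neural crest markers 2 were higher and 1 lower, of 6 skeletal muscle and of 6 epithelial markers 1 was higher and 1 lower each, and Ttr of the liver and yolk sac list was higher, with 814 on the OFT control but 6.82 on the OFT mutant array. The part of these cell types in the differences was not tested.

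When p75-sorted cells were set against the average of the 3 other origins, 2 of the 8 genes were higher and none was lower by the brightest probe set. Of all genes, 28.3% were called higher and 19.0% lower in this comparison, so 2 of 8 is near the background. Cdkn1c was 1.84-fold higher (0.88 ± 0.20, adjusted p = 0.00324) and Meg3 1.38-fold higher (0.47 ± 0.15, adjusted p = 0.0229) in limma. The p75 arrays overlapped the other 6 arrays for both genes. Without the p75 mutant array none of the 8 genes was called, without the p75 control array Cdkn1c and Peg3 were, and without the OFT mutant array Cdkn1c alone was. Without the LM control array Peg3 was called beside Cdkn1c and Meg3. The remaining differences ran from 0.37 for Peg3 to -0.33 for Plagl1, with adjusted p of 0.0895 or more.

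In this comparison different probe sets of a gene gave opposite directions. Of the 28 probe sets, 8 were higher on both p75 arrays than on all 6 others, 5 were lower and 15 overlapped. By the brightest probe set, both p75 arrays were the highest for 28% of all tested genes and the lowest for 18.6%. The counts of 8 and 5 of 28 are near these shares. The brightest Peg3 probe set read 3967 and 5277 in p75, within the range of 1573 to 5691 elsewhere, while another Peg3 probe set read 112 and 132 against 724 to 3141, a log2 difference of -3.50. For Grb10 the brightest probe set differed by 0.26, but the second brightest read 48.4 and 33.1 against 407 to 1677 (-4.00) and the dimmest read 138 and 90.8 against 299 to 637 (-1.90). For Plagl1, the second brightest read 2.86 and 10.8 against 110 to 327, with both p75 values below the filter threshold, while the dimmest read 83.2 and 84.5 against 34.1 to 79.8 (0.43).

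Meg3 showed the other direction. Of its 11 probe sets 7 were higher on both p75 arrays than elsewhere, among them one with 437 and 338 against 46.9 to 107 (1.96), 1 was lower (178 and 277 against 514 to 1446) and 3 overlapped. When the probe sets of each gene were averaged in place of taking the brightest, 6 of the 8 genes were called in p75-sorted cells, 4 of them lower. These were Grb10 (-1.88, adjusted p = 2.58e-05), Plagl1 (-0.82, adjusted p = 0.000395), Peg3 (-0.61, adjusted p = 0.00523) and Igf2 (-0.49, adjusted p = 0.00936) in limma. Meg3 (0.82, adjusted p = 0.000649) was again higher. Cdkn1c (0.88, adjusted p = 0.00404) has 1 probe set, so its difference could not change. The direction of Grb10 and Peg3 and the calls of Plagl1 and Igf2 in this comparison therefore depend on the probe set.

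The p75 arrays also stood apart in RNA quality controls and came from a separate kind of sample. The 3′ over 5′ ratio of the Gapdh control probe sets was 2.82 and 4.91 on the p75 arrays and 0.700 to 0.986 on the others, while that of Actb was 1.57 and 1.65 against 1.42 to 1.94. The label of the mutant p75 array mentions an extraction method for small samples. The part of these in the probe set differences was not tested. All 5 neural crest markers were called higher in p75-sorted cells, with sums of 4867 and 6105 against 461 to 816 elsewhere. Of 6 endothelial markers 5 were lower (227 and 221 against 732 to 1550), as were all 6 epithelial markers (490 and 385 against 1075 to 2344). Of 7 neuronal markers 6 were higher, with sums of 5708 and 3318 against 601 to 4960, which overlapped. Of 6 skeletal muscle markers 4 were higher, among them Myog (2.005) and Myod1 (1.78), with sums of 698 and 1268 against 261 to 587. Both tested liver and yolk sac markers, Ttr and Afp, were higher, with list sums of 1100 and 583 against 13 to 844, which overlapped. Of 4 erythroid markers 2 were lower (8050 and 8350 against 11532 to 28820), as were 2 of 5 macrophage markers (242 and 180 against 333 to 823). Cardiac (1 higher, 3 lower of 6), smooth muscle (2 higher, 1 lower of 5) and cartilage markers (1 higher, 2 lower of 5) were called both ways. Pax7 was not called when the LM control array was left out. The part of these cell types in the levels of the imprinted genes was not tested here either.

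The other lists moved both ways in p75-sorted cells, as did all tested genes, of which 28.3% were called higher and 19.0% lower. Of 18 paternally expressed genes 4 were higher and 7 lower, led by Inpp5f (1.38), Nap1l5 (1.32), Ndn (1.14) and Nnat (-1.11). Of 16 maternally expressed genes 6 were higher and 3 lower, led by Dcn (1.64), Rian (1.35), Tssc4 (1.0) and Mirg (-0.94). Rian and Mirg, which share the Meg3 domain, thus differed in opposite directions. Of 13 genes of the IGF axis 5 were higher, among them Igfbp5 (1.02), Igfbp4 (0.97) and Igfbp3 (0.93), and Igf2bp1 (-0.96) was lower. Of 15 genes of the CDK list 6 were higher and 5 lower, led by Cdkn1b (-1.53) and Cdkn2d (-1.46), 2 CDK inhibitor genes like Cdkn1c, Ccne1 (1.23) and Cdk2 (-1.02). Of 9 genes of imprint maintenance 3 were higher and 3 lower, led by Dnmt1 (0.75), Ctcf (-0.59), Zfp57 (-0.59) and Trim28 (0.56). Irs4, Cdkn2b and Mki67 were called in addition when the LM control array was left out.

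No gene of the group, and no gene at all, was called between mutant and control over the 4 origins: limma called 0 of 13545, or 0.00%, and 410 had an unadjusted p below 0.05. None of the 8 genes, each by its brightest probe set, was among these 410. Their differences ran from 0.17 ± 0.14 for Grb10 and 0.09 ± 0.17 for Cdkn1c through 0.03 ± 0.14 for Plagl1, 0.00 ± 0.15 for Peg3 and -0.01 ± 0.17 for Igf2 to -0.06 ± 0.13 for Meg3, -0.10 ± 0.12 for Mest and -0.10 ± 0.13 for Dlk1. The median of the 8 was 0.00, against -0.01 over all genes. With the LM control array left out, the differences were 0.29 for Grb10, 0.25 for Cdkn1c, 0.20 for Igf2, 0.16 for Plagl1, 0.13 for Peg3, -0.01 for Meg3, -0.07 for Dlk1 and -0.09 for Mest, none of them called, so that the signs of Igf2 and Peg3 turned. Some dimmer probe sets lay further from 0 in the fit of all arrays. The 11 of Meg3 ran from -0.337 ± 0.115 to 0.175, with 9 below 0. The 3 of Plagl1 ran from -0.02 to 0.345 ± 0.133, and the 3 of Grb10 from 0.09 to 0.48. No gene of the 5 other lists was called either. The smallest p in each belonged to Kcnq1ot1 (-0.24 ± 0.13) among paternally expressed genes, Osbpl5 (-0.32 ± 0.16) among maternally expressed genes, Irs2 (-0.28 ± 0.15) in the IGF axis, Ccne1 (0.35 ± 0.15) in the CDK list and Ctcf (-0.18 ± 0.17) in imprint maintenance.

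Within an origin the mutant and control values are 1 array against 1 and carry no test. By the brightest probe set, the LM mutant array was below the control for all 8 genes, from -0.12 for Mest to -0.61 for Igf2. The UM mutant array was above its control for all 8, from 0.00 for Mest (3899 and 3909) to 0.46 for Igf2. Dimmer probe sets went both ways. That of Igf2 differed by 0.19 in LM and -0.23 in UM, and the second brightest of Peg3 by -0.48 and 0.48. After quantile normalization the pattern of the brightest probe sets was weaker, with 5 of 8 genes below 0 in LM and 6 of 8 above 0 in UM. Bright genes as a whole lay on the same side in the deposited values, with medians of -0.10 in LM and 0.08 in UM over the 1285 genes. Of these bright genes, 35.9% were above 0 in LM and 62.3% in UM. The summed erythroid markers went the same way, from 28820 on the control to 17739 on the mutant array in LM and from 17077 to 25414 in UM. So did the proliferation gene Mki67, from 3774 to 2450 and from 2403 to 3220 (Mki67 was singled out after its values were seen). The endothelial and cartilage sums also went this way, and the remaining marker sums did not. Of the other lists, the sums of both imprinted ones, the IGF axis and the CDK list, which contains Mki67, went this way. That of imprint maintenance did not. By the mean log2 of a list's genes, only the paternally expressed list did (7.91 to 7.81 in LM, 7.52 to 7.54 in UM). In LM the maternally expressed list went from 7.81 to 7.83 and the CDK list from 8.65 to 8.77. The IGF axis stayed at 8.53 in UM. The part of these lists and markers in the pattern was not tested. In p75-sorted cells the mutant was above the control for 6 of 8 genes, with Cdkn1c (0.71) and Grb10 (0.55) the furthest, and in OFT for 2 of 8. Among the bright genes 59.7% were above 0 in p75-sorted cells and 48.5% in OFT. After quantile normalization the p75 pair had 4 genes above 0 and 3 below, with a median of 0.02, and Cdkn1c (0.59) and Mest (-0.37) were the furthest. A difference of 0.5 or more was reached by 12.9% of all genes in LM, 10.1% in p75-sorted cells, 7.79% in UM and 7.22% in OFT, and by 1, 2, 0 and 0 of the 8 genes.

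**Figure D4:**
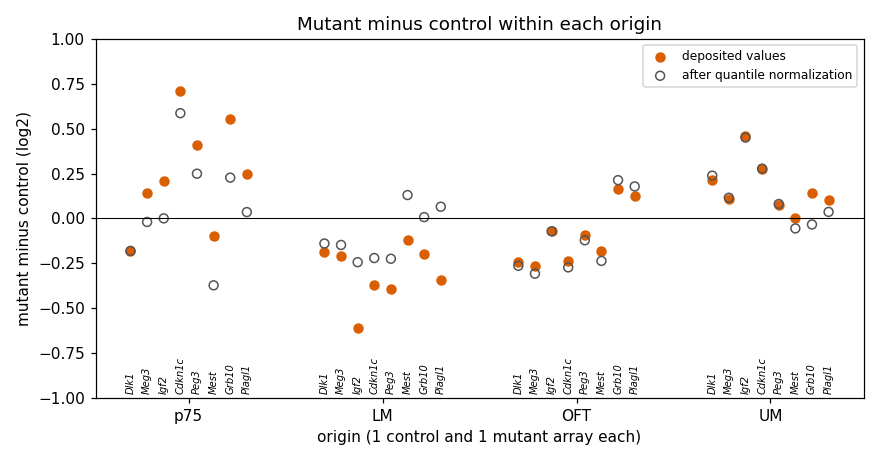
Mutant minus control (y axis, log2) of the brightest probe set of each of the 8 genes within each origin (x axis), 1 array against 1. Filled circles show the deposited values and open circles those after quantile normalization. The filled circles lie below 0 for all 8 genes in LM and at or above 0 in UM, while after quantile normalization 3 genes lie above 0 in LM and 2 below 0 in UM.

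One dimmer Grb10 probe set had the largest gap between the genotypes within OFT among the Grb10 probe sets. Its second brightest probe set read 407 on the OFT control and 1264 on the OFT mutant array, a log2 difference of 1.56, whereas the brightest read 5740 and 6441. On the LM arrays the second brightest read 1182 and 1502, closer together than in OFT.

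For each gene whose origins spanned at least 1, the 3 genes with the most similar profile over the 8 arrays were looked up by the root mean square difference of centred log2 values. For Dlk1 these were Bnc1 (0.39), Myf5 (0.40) and Nr5a2 (0.42), all further away than the nearest genes of the other 4. For Igf2 they were Dio2 (0.24), Zadh2 (0.26) and Itm2a (0.29), and for Peg3 they were Zadh2 (0.29), Pmp22 (0.32) and Thbs4 (0.32). Cdkn1c was nearest to Thbs4 (0.25), Nhsl2 (0.26) and Cyp1b1 (0.27), and Meg3 to Pyroxd2 (0.18), Hoxd8 (0.19) and Tmem121 (0.20). Zadh2 appeared for both Igf2 and Peg3, and Thbs4 for both Peg3 and Cdkn1c. These are descriptions over 8 arrays that share their origins.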

How the data were processed

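The authors' deposited table holds 1 intensity per probe set and array on a linear scale, made from total RNA, by software not given in the sources used. From the values, all arrays share a trimmed mean of 150.001 (lowest and highest 2% left out), and array medians in log2 lay between 5.95 and 6.08. Names came from the platform annotation: 34945 probe sets had 1 gene, 932 several and 9160 were not listed, beside 64 control probe sets. The intensities were taken to log2(intensity + 32), which understates the change of dim genes. Genes were tested if 2 of 8 arrays exceeded the 40th percentile, an intensity of 19.4. limma 3.58.1 (R 4.3.3) fitted 4 origins and genotype, with 3 residual and 9.06 prior degrees of freedom, and was tested on simulated data. The number of arrays limits the precision.

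The members and lists were chosen with earlier results of these data known. Besides all members, up to 4 called genes per list and comparison are named (the largest differences), or 2 with the smallest p where none was called. Alternatives changed the pseudocount, filter, normalization, probe set rule, variance trend, model terms and arrays used.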

Additional observations from a re-analysis of the deposited data

Results flagged for a closer look

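By the brightest probe sets of the imprinted genes, the mutant arrays lay on opposite sides of their controls in LM and UM. The median of the 8 genes, mutant minus control in log2, was -0.276 in LM, where all 8 were below 0. It was 0.122 in UM, where all 8 were above 0. Dimmer probe sets went both ways, and that of Igf2 differed by 0.19 in LM and -0.23 in UM. Of the 1285 genes with a mean intensity of at least 1000, 35.9% were above 0 in LM and 62.3% in UM. The difference between the origins was not tested, since each has 1 array per genotype. After quantile normalization the medians were -0.144 and 0.097, with 5 of 8 genes below 0 in LM and 6 of 8 above 0 in UM. The LM control array was the higher one of its pair for all 8 genes by the brightest probe set. It also had the highest spike-in level (geometric mean 2936) and the highest single intensity (31790) of the 8 arrays. The summed erythroid markers went the same way as the imprinted genes, from 28820 to 17739 in LM and from 17077 to 25414 in UM. So did the endothelial sums (827 to 732 and 745 to 842) and the cartilage sums (2726 to 2389 and 1618 to 1683). The remaining marker sums did not. The sums of both other imprinted lists, the IGF axis and the CDK list also went this way, and that of imprint maintenance did not. By the mean log2 of a list's genes, of these 5 lists only the paternally expressed one did. The part of these in the pattern was not tested.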

How the results depend on the processing

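Over the 8 genes, 4 comparisons and all alternative settings, 485 of 560 differences kept their direction and their side of the threshold. Of the rest, 32 changed sign while uncalled, 31 lost the call, 10 gained one and 2 changed sign and were called. Part of the 560 could not change direction. Leaving out p75 arrays or the genotype term keeps the differences between LM, UM and OFT. Averaging probe sets keeps those of Cdkn1c and Mest, which have 1 each. The 485 are therefore no measure of stability. The last were Grb10 (-1.881) and Peg3 (-0.613) in p75-sorted against LM, OFT and UM, with probe sets averaged per gene. A pseudocount of 1 cut the calls over all genes from 2060 to 999 in OFT against LM and UM and from 211 to 64 in LM against UM, and the members called to 0 and 1, and to 1 in the p75 comparison. In the p75 comparison quantile normalization called 4 members and the mean of probe sets 6, against 2. The cause of these shifts was not tested. Leaving out each array in turn gave 0 to 1 calls over all genes for genotype, 624 to 2145 for OFT, 110 to 223 for LM against UM and 3269 to 6462 for p75. The members called ranged from 0 to 0 for genotype, 0 to 2 for OFT, 2 to 6 for LM against UM and 0 to 3 for p75. Without the LM pair, 1 gene was called for genotype, Nefl (-1.199, adjusted p = 0.0356 in limma), named after its value was seen. Without both p75 arrays, a setting chosen after seeing the data, 5 members were called in LM against UM and 2 in OFT. A single array per origin and genotype leaves no test within an origin, and small differences cannot be told from none.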

Other observations

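The probe set shared by Mir675 and H19, which could not be given to either gene, read 10310 on the LM control and 6597 on the LM mutant array, 7820 and 7625 in OFT, 5888 and 8153 in p75 and 3280 and 3805 in UM. Both UM arrays were below the other 6 arrays. Its mutant minus control differences, 1 array against 1, were -0.64 in LM, -0.04 in OFT, 0.47 in p75 and 0.21 in UM. H19 is the non-coding RNA next to Igf2, and Mir675 is a microRNA made from it.

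Ndn, the paternally expressed gene for Necdin, read 4790 and 5683 in p75, 3572 and 2655 in LM, 2501 and 2372 in OFT and 1585 and 1849 in UM. Its difference between LM and UM was 0.84 ± 0.20 with an adjusted p of 0.0737 in limma, and both UM arrays were again the lowest of the 8. This gene was singled out after its values were seen.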
